A study of Mus musculus with 8 samples.

Results

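This account concerns the chromatin contacts of 5 mouse genes of the bone morphogenetic protein (BMP) pathway, namely the ligand gene Bmp4, the inhibitor gene Smad6 and the target genes Id1, Id2 and Id3. Their contacts are those loops of the series table with at least 1 anchor no more than 5 kb from an annotated start of one of the genes on the GRCm38 assembly. The rule found 207 of the 415681 loops, of which 34 belonged to Bmp4, 52 to Smad6, 38 to Id1, 9 to Id2 and 74 to Id3, and no loop belonged to more than 1 gene. Each gene had 1 anchor.

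The libraries were made by HiChIP from embryonic stem (ES) cells, a method that ligates DNA ends lying near each other in the nucleus and enriches fragments with a chosen histone mark, here acetylation of lysine 27 on histone H3 (H3K27ac), found at active promoters and enhancers. A count is a read pair, so acetylation and contact, or more cells with a contact and a stronger contact in each cell, cannot be told apart here. The B6 line (B6 5-1) was C57BL/6J and the D2 line (D2 5-5) DBA/2J. The congenic line B6-13D2 (QJ 6-1, strain B6.D2-(rs30079041-rs51756099)/Bakr) carried D2 sequence in an interval of chromosome 13 on a B6 background, and D2-13B6 (XE 2-4, strain D2.B6-(rs29224292-rs13469455)/Bakr) carried the reciprocal interval. The design text of the series named a different marker, rs51756099, where the strain label of D2-13B6 has rs13469455. The 2 strain labels also differ at the first marker, so the intervals are not shown to have the same ends. All cells were grown in 15% fetal bovine serum with leukaemia inhibitory factor, 1 µM PD0325901 and 3 µM CHIR99021, inhibitors of MEK and of GSK3. Each genotype was 1 cell line with 2 technical replicates, so every p below measures the spread between libraries of a line and not between independent lines of a genotype. Background and interval allele were thus crossed, with the intervals of the 2 congenic lines taken as 1 factor, and none of the 5 genes lies on chromosome 13.

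BMP ligands bind paired serine/threonine kinase receptors, which phosphorylate SMAD1, SMAD5 and SMAD9, and these enter the nucleus with SMAD4 and bind DNA. The Id genes are direct targets, and their products bind basic helix-loop-helix proteins such as TCF3 and keep them from DNA. In mouse ES cells, BMP4 acting through Id proteins is known to sustain self-renewal together with leukaemia inhibitory factor. SMAD6 blocks the pathway at the receptor and is itself induced by it.

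Library totals ran from 737955 to 1425304 counts, so all values are given as CPM, counts scaled to a common library size of 1e6 with TMM factors. Chromosome 11 held 13.9% to 14.0% of counts in the D2-13B6 libraries and 10.0% to 10.6% in the others, and none of the 5 genes lies on it. All 10 ES-cell marker promoters examined had contacts, at 47.6 to 1014 CPM. Of 20 markers of other cell types 5 were tested and none exceeded 58.6 CPM, while 14, among them T, Eomes, Gata4, Gata6, Sox17 and Pax6, had no anchor.

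The start regions of Bmp4, Smad6 and Id2 are shown because SMAD proteins bind short DNA words near the starts of BMP targets, and because Bmp4 is the gene whose contacts differed between backgrounds. The bases come from RefSeq promoters (GRCm38.p6), read 5′ to 3′ on each gene's own strand, and exclude annotated exons. GGCGCC, the GC-rich element bound by SMAD1 and SMAD5, is in capitals. The Bmp4 stretch is chr14:46390670-46390919 (minus strand), that of Smad6 chr9:64022060-64022309 (minus strand) and that of Id2 chr12:25096254-25096342 (minus strand).
Bmp4: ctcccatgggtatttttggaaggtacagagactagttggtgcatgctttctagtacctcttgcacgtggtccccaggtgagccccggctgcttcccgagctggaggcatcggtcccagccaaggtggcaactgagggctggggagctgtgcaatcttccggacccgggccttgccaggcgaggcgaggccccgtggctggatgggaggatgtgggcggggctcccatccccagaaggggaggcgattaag
Smad6: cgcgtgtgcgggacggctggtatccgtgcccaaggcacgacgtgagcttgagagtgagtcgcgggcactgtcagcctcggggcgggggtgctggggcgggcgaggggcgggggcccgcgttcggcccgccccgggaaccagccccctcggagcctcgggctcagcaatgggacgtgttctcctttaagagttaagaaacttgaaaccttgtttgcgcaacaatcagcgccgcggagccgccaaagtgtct
Id2: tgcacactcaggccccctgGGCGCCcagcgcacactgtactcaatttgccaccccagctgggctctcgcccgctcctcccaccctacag
Windows were placed at the RefSeq start used for each gene, and not at its other annotated starts. In a window from 250 bases before to 50 after that start, GGCGCC was found in Id2 at position -231. It was in neither Bmp4, Smad6 nor Id3, and 11.9% of 32851 RefSeq promoters held it. Widened to 2000 bases before the start, it was found in Id3 at -318 and in Smad6 at -1002, again not in Bmp4, where 21.5% of promoters held it. The short box GTCT, searched on both strands, was in the smaller window of all 4 genes and of 88.0% of promoters. GGCGCC followed after 5 bases by GTCT, the BMP response element, was in none of the 4 in either window, and in 0.0731% of promoters in the smaller. GGCGCC reads the same on both strands. A match is only a description of letters. The start used for Id2 was 25096092, while annotated starts of this minus-strand gene run up to 25097140. The Id2 stretch shown does not reach the start used, and it lies downstream of another annotated start. The promoter of Id1 was not searched.

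The 5 genes differed widely in contact level, both as a whole and in how far their partners lay. The Bmp4 anchor, chr14:46385001-46400000, spans 15 kb, covers the 4 annotated starts of Bmp4 and also starts of Gm15217 and Gm15222, whose contacts cannot be separated from those of Bmp4. The Smad6 anchor is chr9:64010001-64025000 and the Id3 anchor chr4:136135001-136150000, which also holds Gm26001, and both span 15 kb. The anchors of Id1, chr2:152735001-152740000, and Id2, chr12:25095001-25100000, are single bins of 5 kb. Listed bins start at least 10 kb apart, so an anchor of 1 bin can show no contact within itself.

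Per kb of anchor, Id1 had the highest mean level of the 5, with 10.2 CPM per kb over the 8 libraries, against 6.46 for Id3, 6.12 for Smad6, 2.92 for Bmp4 and 1.59 for Id2. The median of all 9501 tested promoters was 5.57 CPM per kb, and Id1 stood at the 79.2nd percentile of them, Bmp4 at the 23.3rd and Id2 at the 6.38th. In every line Id1 was first per kb, between 8.49 ± 0.35 (SD, n = 2) CPM per kb in D2-13B6 and 12.0 ± 1.3 in B6. Id3 and Smad6 followed and did not keep one order, since Id3 was ahead in B6 (6.97 ± 0.76 against 6.13 ± 0.19) and Smad6 in D2 (7.15 ± 0.73 against 6.62 ± 0.02). Per kb, Bmp4 and Id2 were lowest in all lines. They were within their spread of each other in B6, at 2.46 ± 0.14 and 2.18 ± 1.02 CPM per kb, and in B6-13D2, at 1.62 ± 0.08 and 1.31 ± 0.56. In D2 Bmp4 reached 4.37 ± 0.36 CPM per kb and Id2 1.28 ± 1.09. This order depends on the scaling by anchor width. Unscaled, the mean sums were 96.9 CPM for Id3, 91.8 for Smad6, 51.2 for Id1, 43.8 for Bmp4 and 7.95 for Id2, beside a median of 57.8. By sum Bmp4 exceeded Id1 in D2 (65.6 against 48.2 CPM) and in D2-13B6 (48.6 against 42.4). It was below Id1 in B6 (36.9 against 60.1) and in B6-13D2 (24.2 against 54.1).

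Most counts of Id1, Id2 and Bmp4 lay at gaps under 50 kb, and most of those of Id3 and Smad6 did not. Loops between separate anchors with a gap under 50 kb held 75.1% of the 426 counts of Id1, 78.5% of the 65 of Id2 and 66.3% of the 362 of Bmp4. The same share was 32.1% of the 815 counts of Id3 and 28.6% of the 763 of Smad6. Contacts inside the gene's own anchor are not in these shares and held 8.84% of the counts of Bmp4, 4.79% of those of Id3 and 4.59% of those of Smad6. Smad6 contacts lay mostly on one side, with 84.8% of its counts on the right, towards higher coordinates and upstream of this minus-strand gene, and 10.6% on the left. Most loops were sparse, and 61 of the 207 had a single count over all libraries. Only 22 reached the minimum for a test, 5 counts in at least 2 libraries, namely 3 of Bmp4, 8 of Smad6, 4 of Id1, 1 of Id2 and 6 of Id3.

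The contacts of Bmp4, which encodes a secreted ligand, differed between the backgrounds. Summed over all its loops, the Bmp4 promoter had 35.5 and 38.3 CPM in B6, 23.4 and 25.1 in B6-13D2, 69.5 and 61.7 in D2 and 49.5 and 47.7 in D2-13B6. All 4 libraries of D2 background were above all 4 of B6 background, with means of 57.1 ± 10.3 and 30.6 ± 7.4 (SD, n = 4). The averaged background effect, the mean difference of D2 from B6 background over both interval alleles, was a log2 difference of 0.92 (SE 0.16, 95% interval 0.59 to 1.24) with an adjusted p of 1.24e-05 by the quasi-likelihood test of edgeR. It was called, meaning an adjusted p below 0.05, and it was 1 of 2301 calls, 24.2% of the 9501 promoters. So 1 of 5 genes was called where about the same share of all promoters was. The effect was called in every alternative setting, with log2 differences of 0.83 to 0.95 and adjusted p of 5.54e-06 to 0.00166.

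The parental comparison for Bmp4 went the same way. D2 exceeded B6 by 0.84 (SE 0.23) on the log2 scale, with an adjusted p of 0.00997, in a comparison that called 10.5% of promoters. This call did not survive the loss of some libraries, with an adjusted p of 0.112 without B6 replicate 1 and 0.124 without D2 replicate 1, and it was 0.117 with DESeq2. The range over the other alternatives, all called, began at 0.00699.

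The interval on chromosome 13 had no called effect on Bmp4, and its direction was opposite in the 2 backgrounds. B6-13D2 differed from B6 by -0.59 (SE 0.27, 95% interval -1.13 to -0.05, adjusted p 0.205), with no overlap of libraries, and 5.87% of promoters were called in that comparison. D2 differed from D2-13B6 by 0.44 (SE 0.20, 95% interval 0.04 to 0.83, adjusted p 0.193), again without overlap, and 7.84% of promoters were called. The averaged interval effect, D2 allele minus B6 allele, was -0.08 (95% interval -0.41 to 0.25, adjusted p 0.847) against 8.28% of promoters called. The interaction, D2 over D2-13B6 less B6-13D2 over B6 on the log2 scale, was 1.03 (SE 0.33, adjusted p 0.0524) and was not called, where 5.95% of promoters were. It was called with library totals alone (0.0255) and with a stricter filter (0.0498), and its adjusted p reached 0.216 without D2 replicate 1. In levels, D2 was 2.71 times B6-13D2, lines that share the D2 interval, and D2-13B6 was 1.32 times B6, lines that share the B6 interval.

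**Figure D1:**
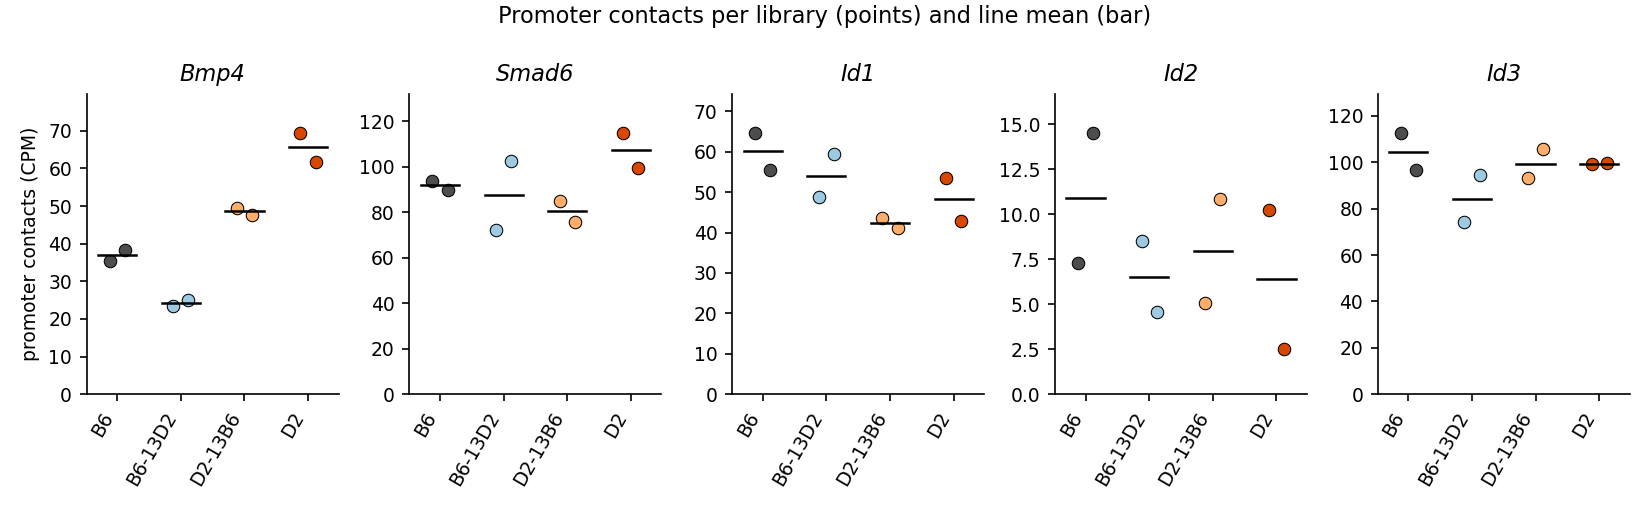
Contacts of each gene's promoter (CPM, linear axis from 0, a separate scale per gene) in the 8 libraries, as points, with a bar at the mean of the 2 libraries of each line. For Bmp4 the 4 libraries of D2 background (49.5, 47.7, 69.5 and 61.7) lie above the 4 of B6 background (35.5, 38.3, 23.4 and 25.1), while the other genes overlap between backgrounds.

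The 3 tested loops of Bmp4 were all within 50 kb of its anchor or inside it. The loop to chr14:46335001-46355000 and the one inside the anchor reached the minimum for a test only through libraries of D2 background, so the split into tested and untested loops is not independent of the difference. Together the tested loops had 23.7 and 26.6 CPM in B6, 14.4 and 17.7 in B6-13D2, 56.6 and 50.8 in D2 and 36.5 and 38.9 in D2-13B6, with no overlap of backgrounds. The 31 loops too sparse to test summed to 6.65 to 12.0 CPM in B6 background and 8.64 to 15.3 in D2 background, and those ranges overlapped. The untested loops held 53 counts in D2 background and 37 in B6 background.

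The loop with the largest change joined Bmp4 to chr14:46335001-46355000, a region 30 kb beyond the anchor on the low-coordinate side, which is the 3′ side of this minus-strand gene, with no annotated start within 5 kb of it. It had 3 and 4 counts in B6, 3 and 3 in B6-13D2, 10 and 14 in D2 and 21 and 18 in D2-13B6. In CPM, libraries of B6 background averaged 3.43 ± 1.32 and those of D2 background 14.6 ± 2.9 (SD over 4 libraries from 2 lines), and they did not overlap. The averaged background effect was 2.12 (SE 0.39, 95% interval 1.36 to 2.88, adjusted p 3.69e-06). No library of B6 background had 5 counts here, so the loop entered the test only through libraries of D2 background. With no filter on counts the adjusted p was 0.000169, and under each alternative that was run it stayed called, with log2 differences of 1.93 to 2.31 and adjusted p up to 0.0104.

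Contacts inside the Bmp4 anchor were few. They numbered 3 and 0 in B6, 1 and 2 in B6-13D2, 5 and 5 in D2 and 9 and 7 in D2-13B6. The averaged background effect was 1.92 (SE 0.62, adjusted p 0.0264). The loop passed the filter only through libraries of D2 background, and with no filter the adjusted p was 0.2875. That call also rests on single libraries. The adjusted p was 0.114 without B6 replicate 2 (log2 difference 1.53), 0.0728 and 0.0898 without D2 replicates 1 and 2, 0.06215 and 0.06505 without B6-13D2 replicates 1 and 2, and 0.117 without D2-13B6 replicate 1. Without B6 replicate 1 the log2 difference was 3.91, and DESeq2 gave the loop no adjusted p.

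The loop of Bmp4 with the most counts, 164 in all, reached chr14:46405001-46415000, 5 kb beyond the anchor on the upstream side, also without an annotated start. It had 17.5 and 21.3 CPM in B6, 10.3 and 14.0 in B6-13D2, 38.9 and 26.1 in D2 and 14.6 and 20.9 in D2-13B6. The D2 libraries were the highest, and those of D2-13B6 overlapped those of B6. The averaged background effect was 0.64 (SE 0.24, adjusted p 0.0762) and the interaction 1.497 (SE 0.49, adjusted p 0.172), neither of which was called. Under 15 of 16 alternatives the background effect was likewise not called, with an adjusted p of up to 0.7193 (no filter), and with a stricter filter, which tests fewer loops, it was 0.0449.

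By bins of 5 kb, contacts with the low-coordinate region fell at different places in the 2 lines of D2 background. In the bin chr14:46335001-46340000 there were 6 and 7 counts in D2 and 2 and 4 in D2-13B6. In the bin chr14:46345001-46350000, there were 1 and 2 counts in D2 and 9 and 8 in D2-13B6. These counts are small, the bins were picked after their values were seen, and no test was made. The bins of the Bmp4 anchor all had more contacts with other anchors in D2 background, with 11.3 against 5.64 CPM in the bin of the most downstream start, 17.8 against 10.9 in the bin of the other 3 starts and 23.1 against 12.2 in the bin upstream of them.

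**Figure D2:**
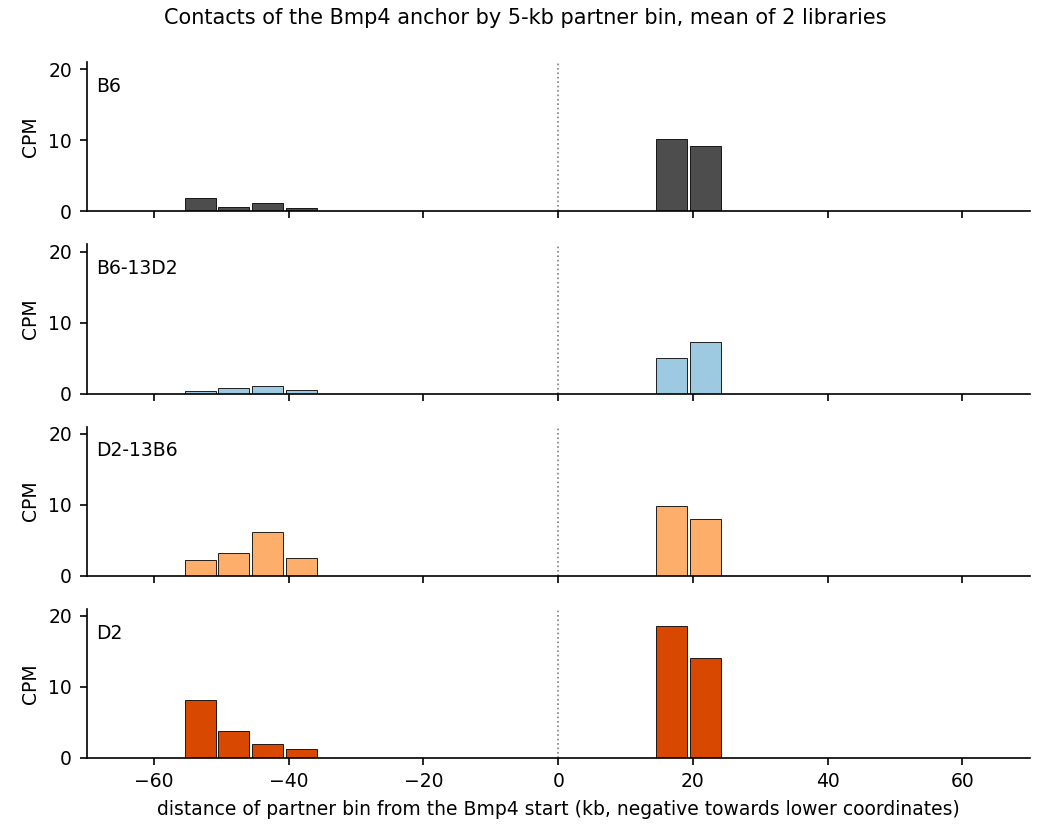
Contacts of the Bmp4 anchor (CPM, mean of 2 libraries, 1 panel per line) against the distance of the 5-kb partner bin from the Bmp4 start in kb, with the start at the dotted line and bins of the anchor itself left out. The bars on the left, between 60 and 35 kb below the start, are taller in D2 and D2-13B6 than in B6 and B6-13D2, and those on the right are tallest in D2.

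The low-coordinate partner region of Bmp4 also differed between backgrounds in its contacts apart from the Bmp4 loop. In a fit of all contacts of each anchor, added after the loop results were seen, 24.8% of 21211 anchors were called for the averaged background effect. The region chr14:46335001-46355000 had 24.7 and 27.9 CPM in B6, 24.7 and 6.65 in B6-13D2, 64.9 and 58.7 in D2 and 67.9 and 50.4 in D2-13B6, a background effect of 1.62 (SE 0.20, adjusted p 5.32e-11). That test covered the Bmp4 loop too. With its Bmp4 loop left out the region still had 4.43 to 22.6 CPM in B6 background and 37.5 to 53.1 in D2 background. These values include contacts within the region, and its contacts with other anchors alone were not tested. Contacts within the region alone were 9.27 and 3.99 CPM in B6, 10.3 and 1.48 in B6-13D2, 25.9 and 15.6 in D2 and 21.2 and 14.4 in D2-13B6. The upstream region chr14:46405001-46415000 had a background effect of 0.60 (SE 0.19, adjusted p 0.0136) over all its contacts. With its Bmp4 loop left out it had 2.95 to 17.3 CPM in B6 background and 10.1 to 20.1 in D2 background, and those ranges overlapped.

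The genes beside Bmp4 were not called. The 3 other tested promoters within 500 kb were those of Cnih1 (log2 background effect -0.11, adjusted p 0.814), Gmfb (0.01, 0.992) and Samd4 (-0.11, 0.716), at gaps of 385, 420 and 480 kb. Their levels were low, with Cnih1 at 13.0 to 25.1 CPM, Gmfb at 8.82 to 17.4 and Samd4 at 26.9 to 47.8 over the 8 libraries.

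Smad6, the inhibitor within the cell, had contacts at a level that did not separate the backgrounds. Its promoter sum was 93.9 and 89.9 CPM in B6, 72.2 and 102.7 in B6-13D2, 115.0 and 99.5 in D2 and 85.1 and 75.9 in D2-13B6. Libraries of the backgrounds overlapped, with D2 the highest line and D2-13B6 the lowest. The averaged background effect was 0.04 (95% interval -0.21 to 0.28, adjusted p 0.868) and the averaged interval effect 0.19 (95% interval -0.06 to 0.43, adjusted p 0.393). D2 against D2-13B6 gave 0.42 (SE 0.17, 95% interval 0.08 to 0.76, adjusted p 0.128), without overlap of libraries and not called.

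The main partners of Smad6 were regions upstream of it and not coding promoters. The strongest, chr9:64040001-64055000, lies 15 kb from the anchor, at starts of the noncoding genes 1110036E04Rik, 1700055C04Rik and Gm25606, and had 21.6 and 17.3 CPM in B6, 19.6 and 31.8 in B6-13D2, 35.4 and 35.2 in D2 and 24.1 and 23.0 in D2-13B6. The next, chr9:64080001-64090000 at a gap of 55 kb, holds the start of Scarletltr and had 14.4 and 17.3 CPM in B6, 8.24 and 13.3 in B6-13D2, 24.8 and 23.5 in D2 and 13.9 and 15.1 in D2-13B6. In both loops the D2 libraries were the highest of the 8. The first had a background effect of 0.33 (adjusted p 0.396) and an interval effect of 0.50 (SE 0.21, adjusted p 0.329), the second a background effect of 0.50 (adjusted p 0.269), and none was called.

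The further loops of Smad6 went in either direction. Those to chr9:64195001-64235000, at starts of Map2k1 and Uchl4, had a background effect of -0.53 (adjusted p 0.487), and all 4 libraries of B6 background (7.21 to 9.27 CPM) were above those of D2 background (3.54 to 6.57). Those to chr9:64120001-64130000, at the start of Lctl, had -0.79 (adjusted p 0.362), and those to chr9:64100001-64105000 had 0.23 (adjusted p 0.838). Contacts inside the Smad6 anchor numbered 4 and 5 in B6, 6 and 7 in B6-13D2, 6 and 4 in D2 and 2 and 1 in D2-13B6, with a background effect of -1.002 (adjusted p 0.293). The anchor at Map2k1 and Uchl4 differed over all its contacts, with a background effect of -0.51 (SE 0.08, adjusted p 4.33e-08), and the anchor at Lctl with -0.37 (SE 0.12, adjusted p 0.0173). The anchor of the strongest partner, chr9:64040001-64055000, was higher in D2 background over all its contacts, by 0.36 (SE 0.11, adjusted p 0.0140). Of the 18 tested partner anchors of the 5 genes, 4 were called higher and 4 lower, beside 24.8% of all anchors called in either direction. In all, 5 of the 8 tested loops of Smad6 were higher and 3 lower in D2 background, and the lowest adjusted p was 0.269.

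Id1, the Id gene with the most contacts per kb, had somewhat fewer in D2 background, a difference that was not called. The promoter had 64.7 and 55.5 CPM in B6, 48.9 and 59.3 in B6-13D2, 53.5 and 42.8 in D2 and 43.7 and 41.2 in D2-13B6. Libraries of B6 background ranged from 48.9 to 64.7 and those of D2 background from 41.2 to 53.5, so they overlapped. The background effect was -0.34 (SE 0.15, 95% interval -0.65 to -0.04, adjusted p 0.0884), and over the alternatives the adjusted p ran from 0.0228, when anchors up to 10 kb from a start were included, to 0.363. The averaged interval effect was 0.02 (95% interval -0.28 to 0.32).

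The strongest loop of Id1 led to the start of Bcl2l1, which encodes the survival protein BCL-XL, 40 kb away at chr2:152780001-152835000. It had 26.8 and 27.9 CPM in B6, 22.7 and 15.5 in B6-13D2, 21.2 and 11.7 in D2 and 16.8 and 14.4 in D2-13B6. The B6 libraries were highest, and the background effect was -0.48 (95% interval -0.95 to 0.00, adjusted p 0.245). The other side held a loop to the shared start region of H13 and Mcts2, chr2:152680001-152700000, with 6.18 to 11.8 CPM and a background effect of -0.23 (adjusted p 0.786). Loops to chr2:152725001-152730000 and chr2:152765001-152775000, without coding starts, had 0.48 (adjusted p 0.589) and 0.41 (adjusted p 0.863). Of 14 other tested promoters within 500 kb of Id1, 1 was called higher and 3 lower in D2 background, beside 24.2% of all promoters called in either direction, and Bcl2l1 was among the latter with -0.19 (SE 0.06, adjusted p 0.0199).

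Id2 had very few contacts at its start. Its promoter had 7.30 and 14.5 CPM in B6, 8.50 and 4.56 in B6-13D2, 10.2 and 2.52 in D2 and 5.09 and 10.8 in D2-13B6, from 2 to 15 counts per library. Replicates differed as much as lines did. The background effect was -0.16 with a 95% interval of -0.99 to 0.68 and the interval effect -0.51 with one of -1.33 to 0.31, so that no difference between lines was detectable at this depth. Its 1 tested loop, to the start of Gm17746 at chr12:25120001-25125000, had 0 to 7 counts per library and a background effect of -0.59 (adjusted p 0.724).

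Id3 had 74 loops, the most of the 5 genes, and a promoter level that did not differ between backgrounds beyond its spread. The sums were 112.7 and 96.5 CPM in B6, 74.3 and 94.3 in B6-13D2, 99.1 and 99.5 in D2 and 93.2 and 105.5 in D2-13B6. B6-13D2 was the lowest line, and its higher library overlapped D2-13B6. The background effect was 0.07 (95% interval -0.17 to 0.30, adjusted p 0.747), the interval effect -0.15 (95% interval -0.38 to 0.08, adjusted p 0.4997), and B6-13D2 against B6 gave -0.30 (adjusted p 0.337).

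One loop of Id3 was called, and it was lower in D2 background. It joined Id3 to chr4:136105001-136110000, a region 25 kb upstream with no annotated start, and had 18 and 6 counts in B6, 9 and 16 in B6-13D2, 4 and 7 in D2 and 8 and 6 in D2-13B6. In CPM this was 18.5 and 7.97 in B6, 9.27 and 11.8 in B6-13D2, 4.72 and 9.13 in D2 and 5.84 and 4.32 in D2-13B6, so that D2 replicate 2 overlapped the B6 background. The background effect was -1.04 (SE 0.35, 95% interval -1.72 to -0.35, adjusted p 0.0372). Leaving out any of 5 libraries ended the call, with an adjusted p of 0.477 and a log2 difference of -0.64 without B6 replicate 1, 0.188 without D2 replicate 1, 0.179 without B6-13D2 replicate 2, and 0.0586 and 0.142 without D2-13B6 replicates 1 and 2. With DESeq2 the adjusted p was 0.385, and with no filter 0.5023. All contacts of this region together were 37.1 to 49.4 CPM in B6 background and 28.7 to 30.2 in D2 background, a background effect of -0.59 (SE 0.18, adjusted p 0.00860), and with the Id3 loop left out the backgrounds still did not overlap, at 27.8 to 34.5 and 19.6 to 25.9 CPM.

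The strongest loop of Id3, to chr4:136115001-136125000, lies 10 kb upstream, and had 11.3 to 18.5 CPM in B6 background and 15.8 to 20.4 in D2 background, with a background effect of 0.21 (adjusted p 0.719). It was not called. The loop to Hnrnpr at chr4:136300001-136325000, 150 kb away, had 6.18 to 9.30 CPM in B6 background and 9.49 to 13.7 in D2 background, without overlap, and an effect of 0.59 (SE 0.34, adjusted p 0.316). The promoter of Hnrnpr, which encodes an RNA-binding protein, was itself higher in D2 background over all its contacts, by 0.63 (SE 0.08, adjusted p 2.26e-09). Loops to Rpl11 at chr4:136045001-136055000 (-0.01) and E2f2 at chr4:136170001-136175000 (-0.42) and inside the Id3 anchor (0.65) had adjusted p of 0.991, 0.729 and 0.504.

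**Figure D3:**
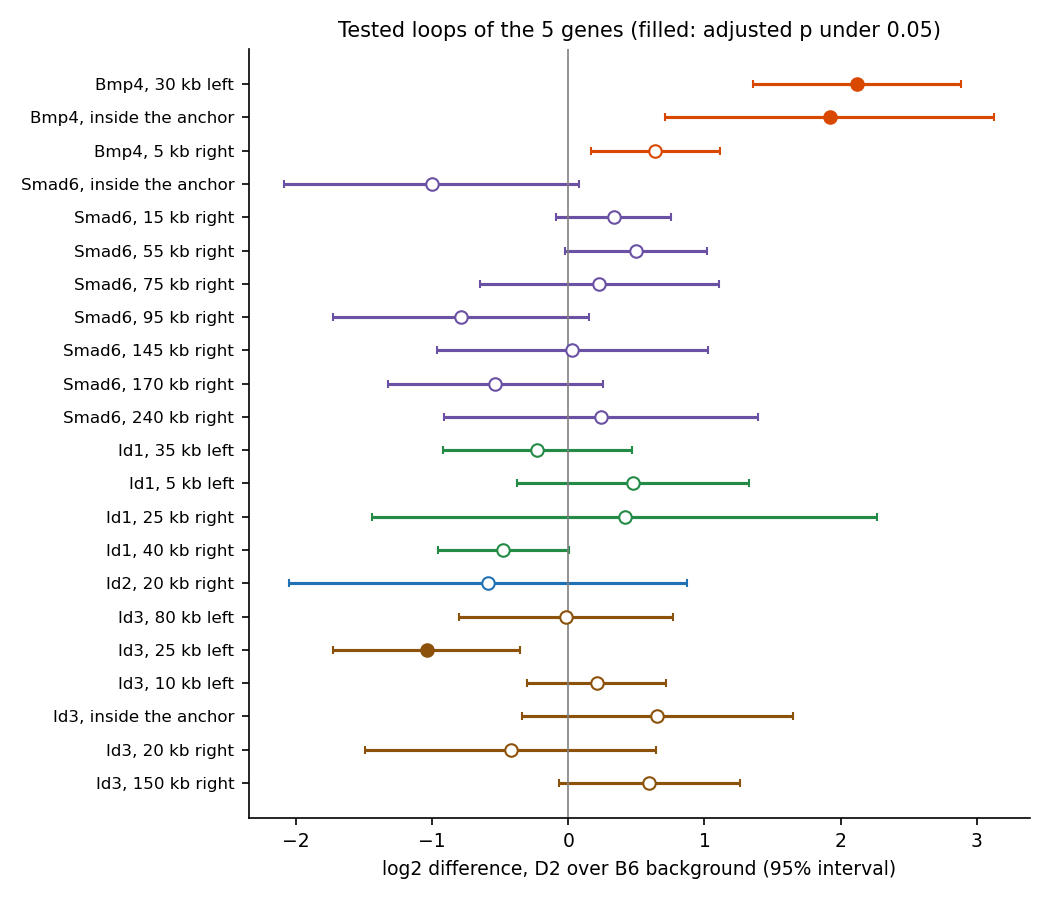
Averaged background effect (log2 difference, D2 over B6 background) of the 22 tested loops, with 95% intervals, named by gene and by the gap between anchors in kb to the left (lower coordinates) or right. Filled points are called, namely the Bmp4 loops 30 kb left (2.12) and inside the anchor (1.92) and the Id3 loop 25 kb left (-1.04).

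Over the 22 tested loops, 3 were called for the averaged background effect, against 8.85% of the 44706 loops tested. Of the 22, 4 reached the minimum count only in D2 background, among them 2 of the called loops, both of Bmp4, and 1 reached it only in B6 background. This count is therefore a description of loops that the filter helped to choose. D2 against B6 called 1, the Bmp4 loop to chr14:46335001-46355000 with a log2 difference of 1.84 (SE 0.57, adjusted p 0.0454), where 2.65% of loops were called. This loop had passed the filter only through libraries of D2 background, and its adjusted p was 0.6876 with no filter and 0.0522 with the replicate block. The call was lost without either library of B6 or of D2 or of D2-13B6, with adjusted p of 0.427 and 0.0772, of 0.0625 and 0.387 and of 0.0537 and 0.0533 for replicates 1 and 2 in that order. No loop of the 5 genes was called by edgeR in B6-13D2 against B6, where 0 had an unadjusted p below 0.05 and 0.879% of all loops were called, or in D2 against D2-13B6, where 4 had and 0.910% were called. None was called for the averaged interval effect (2 with an unadjusted p below 0.05, 0.989% of loops called) or the interaction (3, 0.602%).

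**Figure D4:**
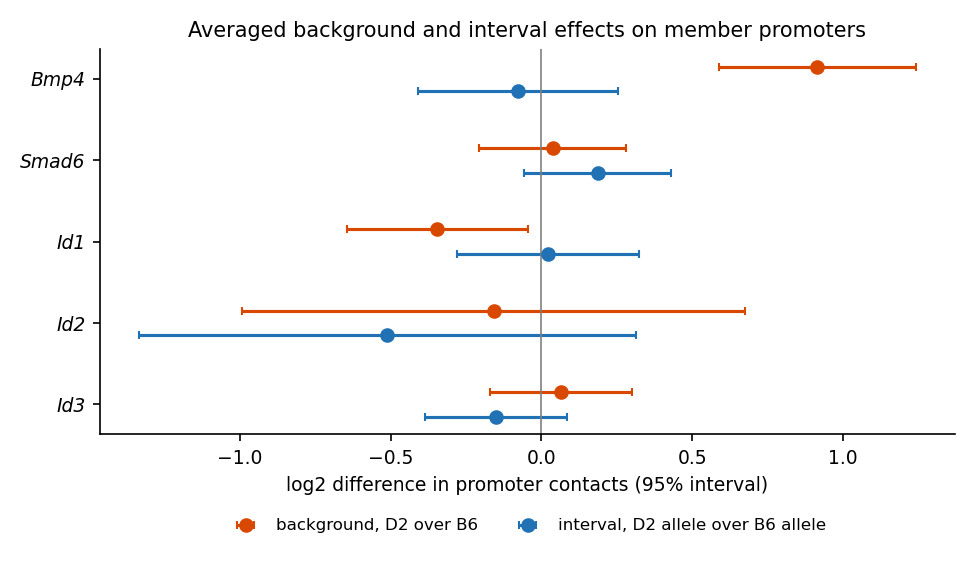
Averaged background effect (D2 over B6) and averaged interval effect (D2 allele over B6 allele) on the promoter sum of each gene, as log2 differences with 95% intervals. The background effect on Bmp4 (0.92) is the only one of the 10 that was called, and the widest intervals are those of Id2.

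Other genes of the pathway gave calls in both directions. The list holds 66 genes, the 5 described above among them, and 33 were tested. Of the 61 others, 33 had an anchor at a start and 28 were tested, and 8 of these (28.6%) were called for the background effect, 3 higher and 5 lower in D2 background, beside 24.2% of all promoters. Of the 3 called higher, Smad4 passed the filter only through libraries of D2 background. The median effect of the 28 was -0.01 and that of all promoters 0.01. Among 4 tested ligands Bmp4 alone was called, and Bmp8a (-0.26), Gdf5 (0.01) and Amh (0.21, a unit shared with Plekhj1 and Sf3a2) were not. No anchor was found at the starts of Bmp2, Bmp5 and Bmp7, nor at those of the secreted inhibitors Nog, Chrd and Grem1.

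Of 6 tested receptors 2 were called for the background effect, both lower in D2 background, beside 24.2% of all promoters called in either direction. Bmpr1a, a type I receptor, had 239 and 250 CPM in B6, 296 and 286 in B6-13D2, 215 and 258 in D2 and 226 and 207 in D2-13B6, an effect of -0.24 (SE 0.09, adjusted p 0.0346). Eng, the co-receptor endoglin, had 175 and 145 in B6, 120 and 148 in B6-13D2, 115 and 111 in D2 and 107 and 107 in D2-13B6, without overlap of backgrounds, an effect of -0.43 (SE 0.11, adjusted p 0.00131), and it was also called in D2 against B6 (-0.51, adjusted p 0.0207). The other 4 tested receptors, Bmpr2, Acvr1, Acvr2b and Rgma, were not called.

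Of the signal transducers Smad4, the common partner SMAD, had few contacts, and no library of B6 background reached the minimum of 10 counts. Its counts were 3 and 5 in B6, 6 and 6 in B6-13D2, 11 and 9 in D2 and 14 and 17 in D2-13B6. It had 3.13 and 6.61 CPM in B6, 6.37 and 4.56 in B6-13D2, 12.5 and 11.3 in D2 and 10.2 and 12.3 in D2-13B6, and its fitted effect of 1.198 (SE 0.39, adjusted p 0.0174) is a description of a promoter that the filter admitted only where it was high. Smad1 at -0.38 (adjusted p 0.391) was not called. Of the inhibitors within the cell, Smurf2, a ubiquitin ligase for SMADs, was higher (0.53, SE 0.14, adjusted p 0.00381), and Smad7, an inhibitory SMAD like Smad6, lower (-0.23, SE 0.08, adjusted p 0.0220). Smurf2 lies on chromosome 11, which held more counts in D2-13B6, and had 43.8 and 51.6 CPM in B6, 58.4 and 45.6 in B6-13D2, 63.8 and 68.0 in D2 and 78.6 and 74.5 in D2-13B6. The part of the chromosome's counts in this result was not tested.

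Among targets, Tbx3, a transcription factor of ES cells, was higher by 0.28 (SE 0.08, adjusted p 0.00488), with 312 to 408 CPM in B6 background and 386 to 481 in D2 background, and Id4 (-0.04) and Dusp9 (-0.13) were not called. Of the Id-binding helix-loop-helix genes, Tcf12 was higher in B6-13D2 than in B6 (0.55, SE 0.12, adjusted p 0.00228) and for the averaged interval effect (0.27, SE 0.09, adjusted p 0.0408), with an interaction of -0.57 (adjusted p 0.0378). Tcf4, of the same class and named after its values were seen, was lower in D2 background (-0.39, SE 0.15, adjusted p 0.0431), with 54.2 to 94.5 CPM in B6 background and 42.9 to 61.5 in D2 background, which overlapped. Over the other genes of the list, B6-13D2 against B6 called 2 of the 28 (7.14%, beside 5.87% of all promoters) and the averaged interval effect 1 (3.57%, beside 8.28%). The interaction called 3 (10.7%, beside 5.95%) and D2 against D2-13B6 called 1 (3.57%, beside 7.84%). D2 against B6 called 1, Eng (3.57%, beside 10.5%). Ppm1a, a phosphatase of SMADs, was higher in B6-13D2 than in B6 (0.54, SE 0.13, adjusted p 0.00686), with an interaction of -0.77 (SE 0.18, adjusted p 0.00489). Fstl1, a secreted follistatin-like protein, was lower in D2 background (-0.33, SE 0.10, adjusted p 0.0108) and higher in D2 than in D2-13B6 (0.58, SE 0.15, adjusted p 0.00539), with an interaction of 0.91 (SE 0.20). Comparisons that share the B6 or the D2 libraries are not independent of each other.

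**Figure D5:**
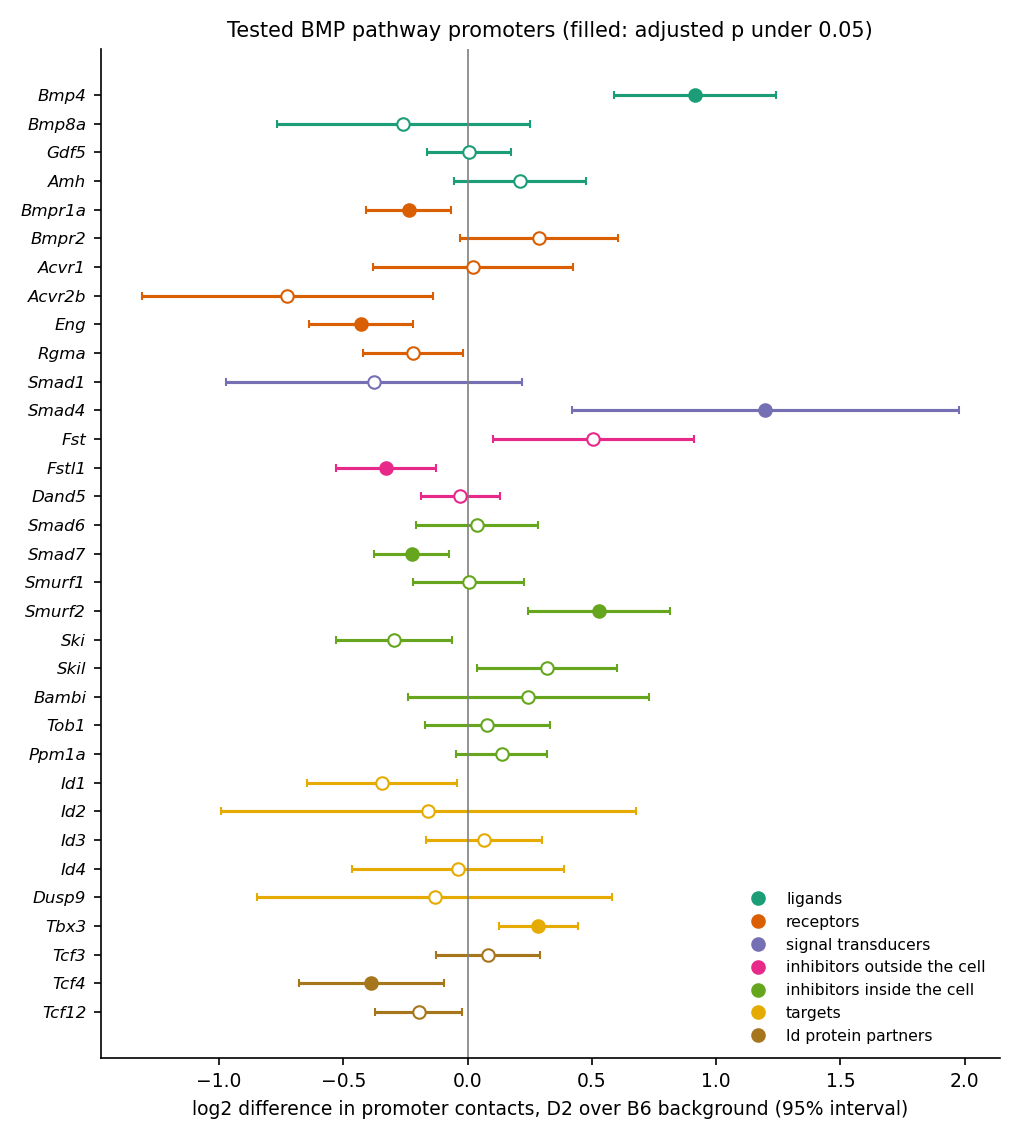
Averaged background effect (log2 difference, D2 over B6 background) on the 33 tested promoters of the pathway list, with 95% intervals, coloured by role and filled where the adjusted p was below 0.05. Bmp4 (0.92) and Smad4 (1.198) lie farthest to the right, and 9 of the 33 are called, 4 higher (Bmp4 among them) and 5 lower. Smad4 entered the test only through libraries of D2 background.

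The 5 promoters shared no single pattern over the 8 libraries. Correlations of log2 CPM between pairs of them ran from -0.43 for Id1 and Bmp4 to 0.50 for Id3 and Bmp4, as a description over libraries that share lines. The promoters on other chromosomes most like Bmp4 were Hnf4a (r = 0.99), Pramef6 (0.98) and Slc17a5 (0.98). Hnf4a, a transcription factor gene of liver and gut, had 42.8 and 47.6 CPM in B6, 29.7 and 25.9 in B6-13D2, 88.8 and 84.4 in D2 and 57.5 and 63.6 in D2-13B6, the same order of lines as Bmp4. Those most like Id1 were 1700102P08Rik (0.98), Laptm5 (0.97) and Itga5 (0.97), and those most like Id3 were Ror2 (0.98), Capn15 (0.97) and Slc25a53 (0.95). Smad6 was most like a shared unit of Arfip2, Gm45799, Timm10b and Trim3 (0.95), Srsf7 (0.94) and Bloc1s2 (0.94), and the sparse Id2 most like Arsa (0.94), Mtmr14 (0.94) and a unit of Bcl6 and Gm37419 (0.92). These are the highest of 9501 correlations over 8 points and carry no test.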

How the data were processed

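H3K27ac HiChIP counts of 8 libraries from 4 mouse ES cell lines were analysed. The deposited table gives whole-number counts of read pairs per loop, not normalized, and each library file, as deposited by the authors, gives counts per pair of 5-kb bins. Both had equal totals. Per the submitters' processing notes the build was mm10, and BWA 0.7.18, SAMtools 1.19.2 and edgeR 3.34.1 were used, with roles not stated. The loop caller is not given in the sources used here. DBA/2J reads were set against a C57BL/6J reference, and the effect on counts was not tested. Columns matching no sample numbered 0.

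Genes were matched to anchors by GENCODE M21 starts (5 kb). Promoter sums counted each loop once over all anchors at a gene's starts, and genes with identical loops formed 1 unit. Units needed 10 counts, and loops 5, in at least 2 libraries. Tests used edgeR 4.0.16 in R 4.3.3 (quasi-likelihood, TMM, 1 mean per line, all 8 libraries, Benjamini-Hochberg over all units, threshold 0.05). SE is the log2 difference over the square root of F. There were 6 contrasts. The scripts were tested on simulated data. Alternatives were other scaling, DESeq2 1.42.0, other filters and windows, a replicate block, chromosome 11 left out and single libraries left out. The genes and lists were chosen with earlier results of these data known. Read pairs carried no molecular identifiers. Named loops were each gene's inside loop, its 5 strongest tested loops and called loops, with all 5 genes, called pathway genes (at most 10, by adjusted p) and the 3 promoters most like each gene.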

Additional observations from a re-analysis of the deposited data

How the results depend on the processing

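Of 210 counts of called promoters or loops of the 5 genes recomputed under alternatives, 190 stayed within 1.5 times their main value. Most of the main values were 0, and for those the range only means that the count stayed at 0. The 190 is therefore little evidence that the calls were stable. Member promoters called in D2 against B6 went from 1 to 0 with DESeq2 and to between 0 and 1 with single libraries left out. For the background effect they went from 1 to 2 when anchors up to 10 kb away were included, Id1 being the addition. For the interaction they went from 0 to 1, Bmp4, with library totals alone and with the stricter filter. Member loops called in D2 against B6 went from 1 to 0 with DESeq2, which gave the Bmp4 loop no adjusted p, with no filter, and with the replicate block (0), where the adjusted p of the Bmp4 loop was 0.0522. Single libraries left out gave 0 to 1. Member loops called for the background effect went from 3 to 1 with DESeq2 and with no filter, and to between 1 and 2 with single libraries left out. The cause of these changes was not tested, except that without a filter 207 loops of the 5 genes and all others entered the adjustment.

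Under the stricter filter 3 member loops were again called for the background effect, with the Bmp4 loop to chr14:46405001-46415000 in place of that inside the anchor. Signs turned only for effects near 0 that were not called. The interval effect on Id1 (0.0229) became -0.00113 without chromosome 11 and -0.0776 with anchors within 10 kb, and with single libraries left out it ran from -0.0652 to 0.0950. Under the same loss of single libraries, the background effect ran from -0.830 to 0.157 for Id2, from -0.00496 to 0.175 for Id3 and from -0.0628 to 0.200 for Smad6.

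Same-numbered replicates did not vary together, with correlations of deviations from -0.18 to 0.04 over promoters, so the numbers do not pair samples, and the replicate block ended no other call of the 5 genes. The depth, a minimum of 5 counts in 2 libraries, limits the loop results to 22 of 207. The stricter filter removed the Id2 promoter and the loop inside the Bmp4 anchor, which therefore have no value under it.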

Other observations

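Called promoters near Id3 lay in both directions. Of 18 other tested promoters within 500 kb of Id3, 3 were called higher in D2 background, Tcea3 (log2 difference 0.43, adjusted p 0.0116), Zfp46 (0.86) and Hnrnpr (0.63), and 3 lower, Fuca1 (-0.37, adjusted p 0.0233), Kdm1a (-0.35) and Tex46 (-0.35), beside 24.2% of all promoters called in either direction. Zfp46 had 140.8 and 88.6 CPM in B6, 107.3 and 105.7 in B6-13D2, 170.8 and 210.4 in D2 and 220.5 and 214.0 in D2-13B6, with no overlap of backgrounds. Kdm1a, which encodes a histone demethylase, had 591.5 and 602.8 CPM in B6, 746.6 and 688.9 in B6-13D2, 522.7 and 551.9 in D2 and 508.7 and 468.5 in D2-13B6, also with no overlap.

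Of 10 such promoters near Smad6, 3 were called lower in D2 background and none higher, namely Lctl (-0.40, adjusted p 0.00872), Map2k1 (-0.39) and Uchl4 (-0.54), again beside 24.2% of all promoters. Map2k1, which encodes the kinase MEK1, had 1292 and 1095 CPM in B6, 1235 and 1240 in B6-13D2, 863.2 and 873.2 in D2 and 1001 and 974.5 in D2-13B6. Near Id1, Pdrg1 was called higher (0.84), with 30.8 to 50.1 CPM in B6 background and 66.2 to 79.7 in D2 background. Rrm2, the 1 tested neighbour of Id2, was not called (0.12, adjusted p 0.726). Neighbouring units can share loops and are not independent.

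Among ES-cell marker promoters, Sox2 (0.44, adjusted p 1.15e-05), Tdgf1 (0.52, adjusted p 5.09e-07, a unit shared with Lrrc2), Esrrb (0.24, adjusted p 0.00918) and Klf4 (0.36, adjusted p 0.0175) were called higher in D2 background, and the other 6 of the 10 were not called, beside 24.2% of all promoters called in either direction.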
